A study of Mus musculus with 6 samples.

Results

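The steroid hormone genes of the Leydig cell were followed, gene by gene, in testes of *Prss55*-/- and wt mice. The list holds 10 genes, chosen by name: *Star*, *Cyp11a1*, *Cyp17a1*, *Hsd3b1*, *Hsd3b6*, *Hsd17b3*, *Insl3*, *Lhcgr*, *Nr5a1* and *Scarb1*. Of these, 9 have a probe under their own name on the array, with 13 probes between them, among 27376 gene names and 41174 probes in all. *Insl3* has no probe under its name and is described apart. *Prss55* encodes a serine protease of the testis that is anchored in the cell membrane, and the mutant mice lack it in every tissue by homologous recombination. Total RNA of the whole testis came from 3 *Prss55*-/- and 3 wt males of a mixed 129Sv/C57BL/6 background, 6 to 8 weeks old and otherwise untreated, and each animal was hybridized to 1 single-dye whole mouse genome array.

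Leydig cells lie between the seminiferous tubules and make the testosterone on which spermatogenesis depends. Luteinizing hormone from the pituitary acts through its receptor and cAMP, cholesterol is taken up from lipoproteins or made in the cell, and a carrier brings it to the inner mitochondrial membrane. There its side chain is cut off to give pregnenolone, and enzymes of the endoplasmic reticulum turn pregnenolone into androstenedione and testosterone. Adult Leydig cells also secrete the peptide hormone INSL3, which takes part in testis descent before birth and serves as a sign of Leydig cell function in the adult.

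As the check of the genotype labels, the 1 *Prss55* probe read 15.08, 14.95 and 14.93 on the log2 scale in *Prss55*-/- replicates 1, 2 and 3, against 15.87, 15.77 and 16.01 in wt replicates 1, 2 and 3. It was 0.90 lower in *Prss55*-/- testis (limma, standard error 0.0798, adjusted p = 0.010) and still well above background there, and where it lies relative to the disrupted part of the gene was not determined. All log2 values here are quantile-normalized signals, and all differences are *Prss55*-/- minus wt. Adjusted p values are those of limma over 28606 probes bright enough to test. The lowest correlation between any pair of arrays was 0.992. All *Prss55*-/- arrays were on 1 slide, wt replicates 1 and 2 on another and wt replicate 3 on another again, so that slide and genotype cannot be told apart. Exact permutation of 3 animals against 3 cannot give a two-sided p below 0.1.

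None of the 9 genes measured under its name passed the adjusted threshold of 0.05, which 1.71% of the 19181 tested genes did. Unadjusted p was below 0.05 for 4 of the 9, *Cyp11a1*, *Cyp17a1*, *Hsd17b3* and *Hsd3b1*, against 24.9% of all tested genes, and all 4 read lower in *Prss55*-/- testis, which 12.5% of all tested genes did at that p. That limma p together with 2-fold or more was met by 0 of the 9 genes and by 0.86% of all genes. By the brightest probe, 8 of the 9 read lower in *Prss55*-/- testis, all but *Hsd3b6*, against 50.7% of all genes. Their median log2 difference was -0.50, and that of all tested genes -0.0023. The genotypes did not overlap for 1 of the 9, *Hsd3b1*, against 27.4% of all genes. In whole testis RNA, fewer Leydig cells and less RNA per Leydig cell cannot be told apart.

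**Figure D1:**
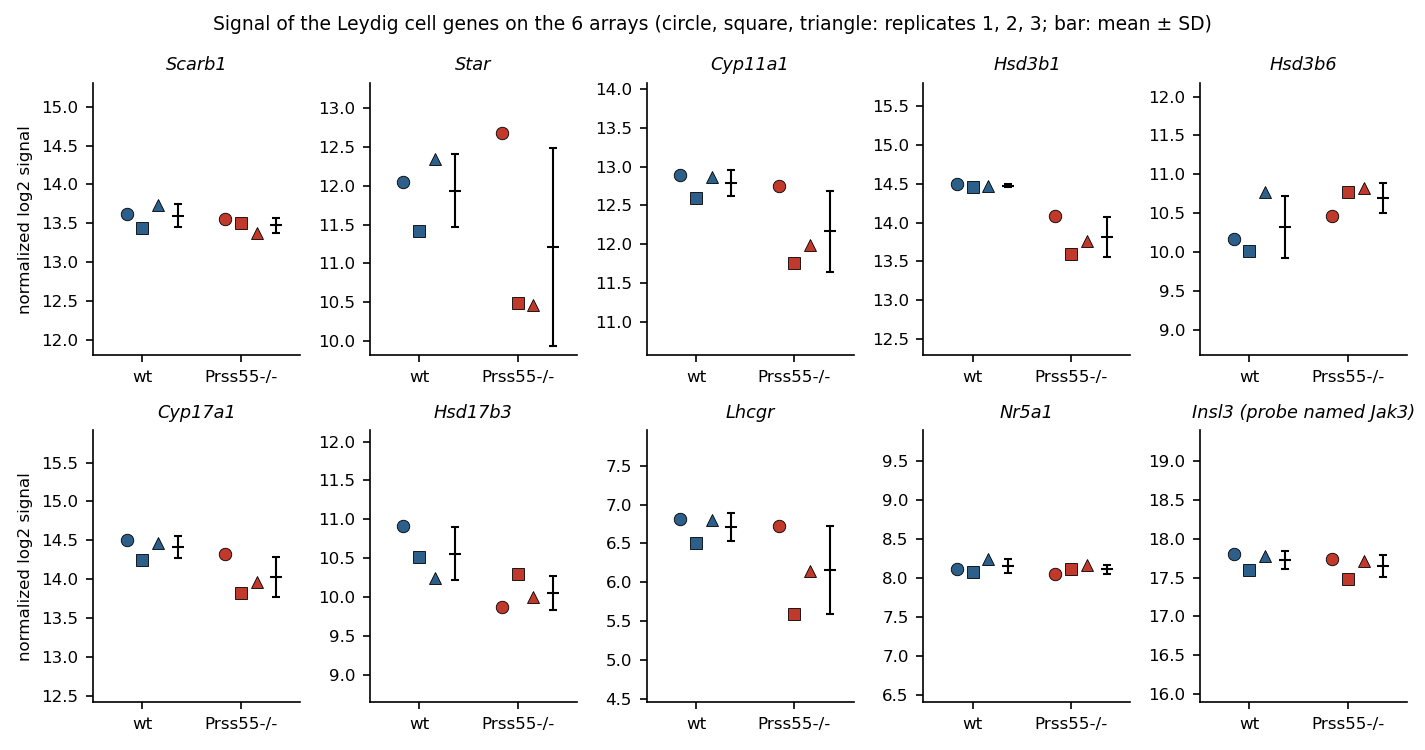
Normalized log2 signal (y axis, drawn to the same height in every panel) of the brightest probe of each gene on the 3 wt (blue) and 3 *Prss55*-/- (red) arrays. Circles, squares and triangles are replicates 1, 2 and 3, and the bars give the mean ± SD. Only the *Hsd3b1* panel shows every red point below every blue one, and the red circle, *Prss55*-/- replicate 1, reaches the height of the wt points for *Star*, *Cyp11a1* and *Lhcgr*.

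*Lhcgr* encodes the receptor for luteinizing hormone, the first step of the pathway. Its probe, on chromosome 17 from 89141300 to 89141359 (minus strand, genome build mm9, as are all probe positions here), read 6.72, 5.59 and 6.15 in *Prss55*-/- replicates 1 to 3 and 6.82, 6.50 and 6.80 in wt replicates 1 to 3. The genotypes overlapped, since *Prss55*-/- replicate 1 lay above wt replicate 2, while the other *Prss55*-/- arrays lay below all wt arrays. The difference was -0.56 (standard error 0.279, 95% interval -1.23 to 0.12, limma adjusted p = 0.34), and the interval reaches from 42.5% to 109% of the wt signal. The probe was dim, with signals of 47.7 to 112 before normalization, though well above background on all 6 arrays. With normexp background correction the difference shrank to -0.384 (limma adjusted p = 0.175).

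*Scarb1* encodes the receptor that takes up cholesterol esters from high-density lipoprotein. It was among the evenest of the list, with 13.55, 13.50 and 13.37 in *Prss55*-/- replicates 1 to 3 and 13.62, 13.44 and 13.74 in wt replicates 1 to 3 (chromosome 5, 125757658 to 125757717). The values of the genotypes overlapped. The difference was -0.13 (95% interval -0.35 to 0.10, limma adjusted p = 0.49), so that any difference between 78.3% and 107% of wt lies within the interval.

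*Star* encodes the carrier that moves cholesterol into the mitochondrion, the step that responds fastest to luteinizing hormone. Its brighter probe (chromosome 8, 26924735 to 26924794) read 12.68, 10.49 and 10.46 in *Prss55*-/- replicates 1 to 3 and 12.05, 11.42 and 12.34 in wt replicates 1 to 3. *Prss55*-/- replicate 1 was thus the highest of all 6 arrays and the other *Prss55*-/- arrays the lowest. The highest *Prss55*-/- array was 4.65-fold above the lowest, and the highest wt array 1.90-fold above the lowest.

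The second *Star* probe, 3′ of the first on the same chromosome (26925460 to 26925519), gave the same order, with 11.16, 8.88 and 8.85 in *Prss55*-/- and 10.56, 9.84 and 10.93 in wt testis. The difference was -0.73 by the first probe (standard error 0.634, limma adjusted p = 0.57) and -0.81 by the second (limma adjusted p = 0.55). Both lie within the spread between animals, and the 95% interval of the first, -2.27 to 0.81, allows 20.7% to 176% of the wt signal. Without *Prss55*-/- replicate 1 the first probe gave -1.46, or 2.76-fold lower (limma adjusted p = 0.065), without *Prss55*-/- replicate 2 it gave -0.37 and without *Prss55*-/- replicate 3 -0.36 (limma adjusted p = 0.84 and 0.85). The spread of *Star* within genotypes, a pooled SD of 0.960, was reached by 0.381% of tested genes, whose median was 0.0898.

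*Cyp11a1* encodes the mitochondrial enzyme that cuts the cholesterol side chain. Its brightest probe and the probes of *Cyp17a1*, *Hsd3b6* and *Hsd17b3* are printed here, 5′ to 3′, because the differences described below rest on these stretches of RNA and not on whole transcripts:
*Cyp11a1*: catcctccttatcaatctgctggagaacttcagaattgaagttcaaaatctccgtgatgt
*Cyp17a1*: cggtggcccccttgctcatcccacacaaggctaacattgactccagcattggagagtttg
*Hsd3b6*: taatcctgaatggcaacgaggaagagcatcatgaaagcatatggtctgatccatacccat
*Hsd17b3*: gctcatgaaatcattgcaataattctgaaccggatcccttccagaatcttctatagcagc
The positions of the *Cyp11a1* probe (chromosome 9, 57874074 to 57874544, plus strand), the *Cyp17a1* probe (chromosome 19, 46742594 to 46743207, minus strand) and the *Hsd17b3* probe (chromosome 13, 64159943 to 64160741, minus strand) span more than the 60 bases of the probe, so that each is split over an intron. The *Hsd3b6* probe (chromosome 3, 98610436 to 98610495, minus strand) is not. Exons and untranslated parts of build mm9 were not assigned here.

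On this probe *Cyp11a1* read 12.75, 11.76 and 11.99 in *Prss55*-/- replicates 1 to 3 and 12.89, 12.59 and 12.87 in wt replicates 1 to 3. *Prss55*-/- replicate 1 lay between the wt values and the other *Prss55*-/- arrays lay below them. The difference was -0.62 (standard error 0.256, 95% interval -1.24 to 0.01, limma unadjusted p = 0.052, adjusted p = 0.27). A second probe, 5′ of it (57873365 to 57873902), gave -0.58 (95% interval -1.14 to -0.02, limma unadjusted p = 0.043, adjusted p = 0.25) with the same order of arrays within *Prss55*-/- testis. Without *Prss55*-/- replicate 1 the brightest probe gave -0.91 and passed the threshold (limma adjusted p = 0.033), and without *Prss55*-/- replicate 2 it gave -0.41.

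Another probe named *Cyp11a1* stands for another listed transcript (57869600 to 57869659). It read 8.43, 4.37 and 5.26 in *Prss55*-/- and 5.47, 7.31 and 5.77 in wt testis. On 1 *Prss55*-/- array it was not well above background, and its 95% interval, -2.84 to 2.51, sets no useful limit on a difference.

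*Hsd3b1* and *Hsd3b6* encode the dehydrogenases that turn pregnenolone into progesterone in the mouse Leydig cell, of which *Hsd3b6* is the form known for the adult cell. *Hsd3b1* (chromosome 3, 98656330 to 98656389, minus strand) read 14.09, 13.59 and 13.76 in *Prss55*-/- replicates 1 to 3 and 14.50, 14.46 and 14.47 in wt replicates 1 to 3. The wt arrays lay within a 1.03-fold range and every *Prss55*-/- array lay below them, by at least 0.37. The difference was -0.67 (standard error 0.125, 95% interval -0.97 to -0.36, limma unadjusted p = 0.00168), or 63.0% of wt, with an adjusted p of 0.072 in limma, short of the threshold. It passed without *Prss55*-/- replicate 1 (-0.80, limma adjusted p = 0.0089) and after normexp background correction (-0.64, limma adjusted p = 0.038), 2 of 14 alternatives. The limma adjusted p was 0.255 without *Prss55*-/- replicate 3, 0.233 without wt replicate 1 and 0.168 with a replicate block. With the methods' t-test the adjusted p was 0.181.

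*Hsd3b6* was the 1 gene of the list with a higher mean in *Prss55*-/- testis. It read 10.47, 10.77 and 10.83 in *Prss55*-/- replicates 1 to 3 and 10.17, 10.02 and 10.77 in wt replicates 1 to 3. The genotypes overlapped through wt replicate 3, and the difference of 0.37 (95% interval -0.14 to 0.88, limma adjusted p = 0.39) lies within the spread between animals. Without wt replicate 3 it was 0.59 (limma adjusted p = 0.092).

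Within each array the signal of *Hsd3b1* minus that of *Hsd3b6* was 3.62, 2.82 and 2.93 on the log2 scale in *Prss55*-/- replicates 1 to 3 and 4.33, 4.44 and 3.70 in wt replicates 1 to 3. The genotypes did not overlap in this measure. Its mean was 3.12 ± 0.432 (SD, n = 3) in *Prss55*-/- and 4.16 ± 0.396 (SD, n = 3) in wt testis, a difference of -1.03. It was built after the opposite directions of both genes were seen, so it is a description with no test.

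Of the other *Hsd3b* genes, also looked at after the fact, the brightest *Hsd3b2* probe differed by 0.50, *Hsd3b5* by 0.47, *Hsd3b4* by 0.12 and *Hsd3b7* by -0.09 (limma adjusted p = 0.32, 0.31, 0.435 and 0.57). In wt testis *Hsd3b2* and *Hsd3b5* were highest in replicate 3, as *Hsd3b6* was, and none of these differences passed. A dimmer *Hsd3b2* probe gave -0.43 (limma adjusted p = 0.62), the opposite direction. The RNAs of this family are close in sequence, and how far each probe also binds a neighbour's RNA was not tested.

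*Cyp17a1* encodes the hydroxylase and lyase that turns progestins into androgen precursors. It read 14.32, 13.82 and 13.96 in *Prss55*-/- replicates 1 to 3 and 14.51, 14.25 and 14.47 in wt replicates 1 to 3. *Prss55*-/- replicate 1 lay above wt replicate 2, so the genotypes overlapped, by 0.06. The difference was -0.38 (standard error 0.141, 95% interval -0.72 to -0.03, limma unadjusted p = 0.036, adjusted p = 0.23), or 76.9% of wt.

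*Hsd17b3* encodes the enzyme of the last step, from androstenedione to testosterone. It read 9.87 and 10.29 in *Prss55*-/- replicates 1 and 2, deviated by -0.05 from the *Prss55*-/- mean of 10.06 in replicate 3, and read 10.92, 10.51 and 10.25 in wt replicates 1 to 3. Here *Prss55*-/- replicate 1 was the lowest array, and the overlap came from *Prss55*-/- replicate 2 and wt replicate 3. The difference was -0.50 (standard error 0.192, 95% interval -0.97 to -0.04, limma unadjusted p = 0.039, adjusted p = 0.235), and it was -0.32 without wt replicate 1 (limma adjusted p = 0.45).

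*Nr5a1* encodes the nuclear receptor known as steroidogenic factor, which binds the promoters of most steroid enzyme genes. It was the evenest gene of the list, with 8.05, 8.11 and 8.17 in *Prss55*-/- replicates 1 to 3 and 8.12, 8.08 and 8.25 in wt replicates 1 to 3 (chromosome 2, 38549021 to 38549080). The genotypes overlapped almost wholly. The difference was -0.04 (95% interval -0.19 to 0.12, limma adjusted p = 0.78), which bounds it to 87.4% to 108% of wt. A dimmer probe (38556959 to 38557018) gave 0.16 (95% interval -0.20 to 0.52, limma adjusted p = 0.59). *Nr5a1* is also made by Sertoli cells, so its signal in whole testis is not that of Leydig cells alone.

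**Figure D2:**
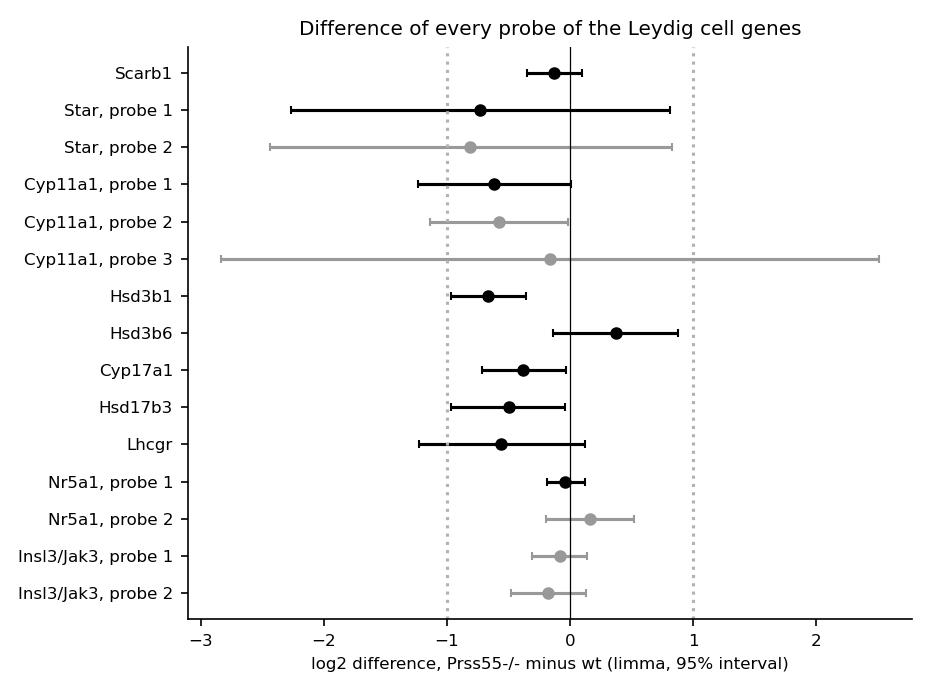
Log2 difference of *Prss55*-/- minus wt (x axis, limma, with its 95% interval) for every probe of the Leydig cell genes. Black points are the brightest probe of a gene under its own name, grey points are other probes and both probes that list the *Insl3* accession, and dotted lines mark 2-fold. Intervals of *Hsd3b1*, *Cyp17a1*, *Hsd17b3* and the second *Cyp11a1* probe lie below 0, those of *Star* reach from beyond 4-fold lower to above 0, and no brightest probe reaches 2-fold.

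For *Insl3*, the array names 0 probes, but 2 probes named *Jak3* list the RefSeq accession of *Insl3* beside that of *Jak3*. In the GRCm38.p6 annotation of RefSeq, *Insl3* (chromosome 8, 71689252 to 71690577) lies inside *Jak3* (71676383 to 71690577) and ends at the same base. The dimmer of the 2 probes, on chromosome 8 from 74214085 to 74214144 in mm9 (plus strand), has this sequence, shown because its name and its listed accessions differ:
*Insl3* or *Jak3*: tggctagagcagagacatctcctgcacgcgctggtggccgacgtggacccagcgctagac
JAK3 is a tyrosine kinase of blood cells, and which of both RNAs these probes measure was not tested.

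The brighter of these probes (74214308 to 74214367) read 17.74, 17.48 and 17.72 in *Prss55*-/- replicates 1 to 3 and 17.81, 17.60 and 17.78 in wt replicates 1 to 3. The dimmer one read 16.18, 15.85 and 16.16 in *Prss55*-/- and 16.24, 16.06 and 16.41 in wt testis. On both, replicate 2 was the lowest array of either genotype and the genotypes overlapped. The differences were -0.08 (95% interval -0.31 to 0.14, limma adjusted p = 0.67) and -0.18 (95% interval -0.48 to 0.13, limma adjusted p = 0.49).

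The remaining *Jak3* probe, upstream of both (74210826 to 74211151), lists no *Insl3* accession. It read 8.38, 8.53 and 8.78 in *Prss55*-/- and 8.41, 8.45 and 8.97 in wt testis, with replicate 3 the highest of each genotype, a difference of -0.05 (limma adjusted p = 0.91). Its wt mean was 8.61, far below the wt means of 16.24 and 17.73 for the 2 probes that list *Insl3*. What this gap comes from was not tested. Counting the *Insl3* probes as a 10th gene, a step added after the data were seen, left 0 genes past the adjusted threshold and moved the median difference to -0.44.

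Promoter sequence was at hand for 6 of the 10 genes, with 7 starts. *Star*, *Cyp17a1*, *Nr5a1* and *Scarb1* had none at hand and were not searched. The bases upstream of the start were searched, on both strands, for AGGTCA, the core bound by steroidogenic factor and other nuclear receptors, and for CAAGGTC, a longer form of its site that shares AGGTC with the first. Over the 250 bases upstream of each start, AGGTCA occurs in 2 of the 7 starts and CAAGGTC in 1. Of 32851 mouse promoters, 14.0% hold AGGTCA and 3.32% CAAGGTC. The 3 matches are shown to set this motif beside the steady *Nr5a1* signal, with the motif in capitals, 5′ to 3′ on the gene's strand (RefSeq, GRCm38.p6):
*Lhcgr*: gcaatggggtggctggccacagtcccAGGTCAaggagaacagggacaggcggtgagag
*Cyp11a1*: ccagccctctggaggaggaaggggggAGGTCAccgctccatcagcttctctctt
*Insl3*: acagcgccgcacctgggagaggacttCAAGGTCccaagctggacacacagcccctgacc
These stretches lie at chr17:88792105-88792162 (minus strand), chr9:58014898-58014951 (plus strand, 1 of 2 listed *Cyp11a1* starts) and chr8:71689089-71689147 (plus strand). The motif begins 122, 28 and 137 bases upstream of the start. A match is a description of letters and not a bound site, and the arrays hold no data on binding.

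The spread within genotypes followed the same arrays for several genes. *Prss55*-/- replicate 1 was the highest *Prss55*-/- array for 6 of the 9 genes, *Star*, *Cyp11a1*, *Cyp17a1*, *Hsd3b1*, *Lhcgr* and *Scarb1*, and the lowest for the other 3, *Hsd3b6*, *Hsd17b3* and *Nr5a1*. It stood 1.47 above the mean of its genotype for *Star*, 0.58 for *Cyp11a1*, 0.56 for *Lhcgr* and 0.28 for both *Hsd3b1* and *Cyp17a1*. Among wt arrays, replicate 2 was the lowest for 8 of the 9 genes, all but *Hsd17b3*, by 0.52 below the wt mean for *Star* and by 0.02 for *Hsd3b1*.

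**Figure D3:**
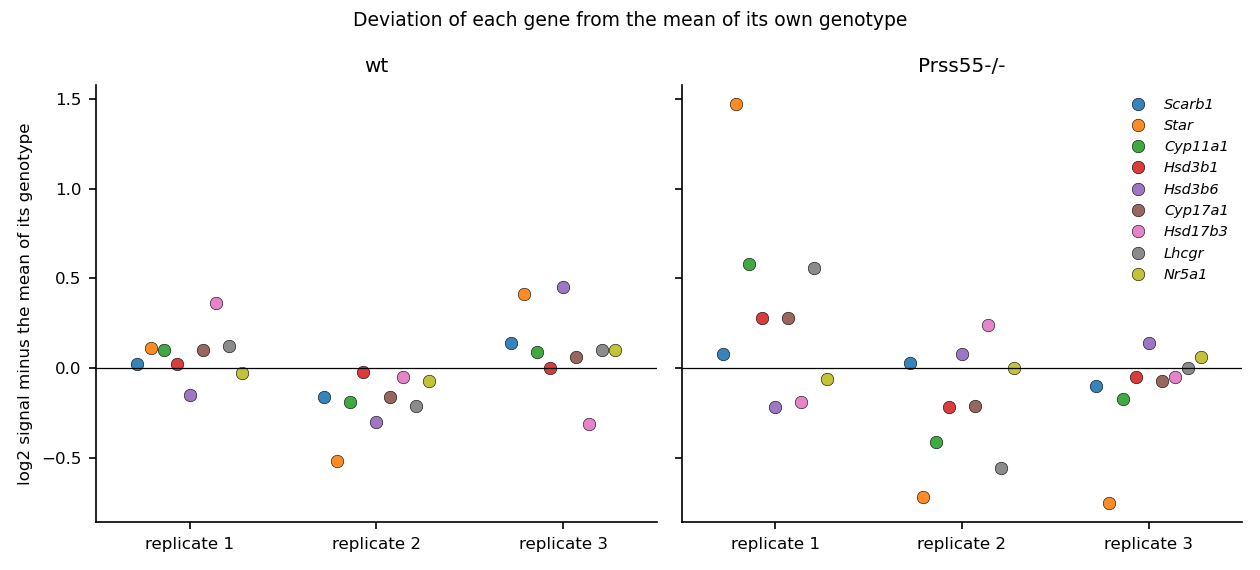
Log2 signal of each gene minus the mean of its own genotype (y axis) on the 3 wt arrays (left) and the 3 *Prss55*-/- arrays (right). Each colour is a gene, and *Star* (orange) runs from 1.47 above to 0.75 below its mean in *Prss55*-/- testis, with *Cyp11a1*, *Lhcgr*, *Hsd3b1* and *Cyp17a1* on the same side as *Star* in replicate 1 and *Hsd3b6*, *Hsd17b3* and *Nr5a1* on the other.

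The size of the differences moved with the animal left out. Without *Prss55*-/- replicate 1 the median difference of the 9 genes was -0.52. Of the 9, 2 passed the adjusted threshold, *Cyp11a1* and *Hsd3b1*, and 1, *Star*, the unadjusted p and 2-fold. Leaving this array out also raised the count over all 19181 tested genes, from 328 to 773 past the adjusted threshold. All genes past the 2-fold rule were not counted in this setting. *Prss55*-/- replicate 1 was the highest *Prss55*-/- array for *Star*, *Cyp11a1* and *Hsd3b1*. Leaving it out thus had to enlarge their differences, and nothing is drawn from their passing here. Without *Prss55*-/- replicate 2 the median was -0.275 and without wt replicate 1 it was -0.327, and 0 of the 9 genes passed either rule. Of all tested genes, 63 and 66 passed the adjusted threshold there. *Lhcgr* gave -0.84 without *Prss55*-/- replicate 1 and -0.27 without *Prss55*-/- replicate 2 (limma adjusted p = 0.11 and 0.57). Over all alternatives the adjusted p of *Hsd3b1* lay between 0.0089 and 0.26, and that of *Cyp11a1* between 0.033 and 0.51.

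**Figure D4:**
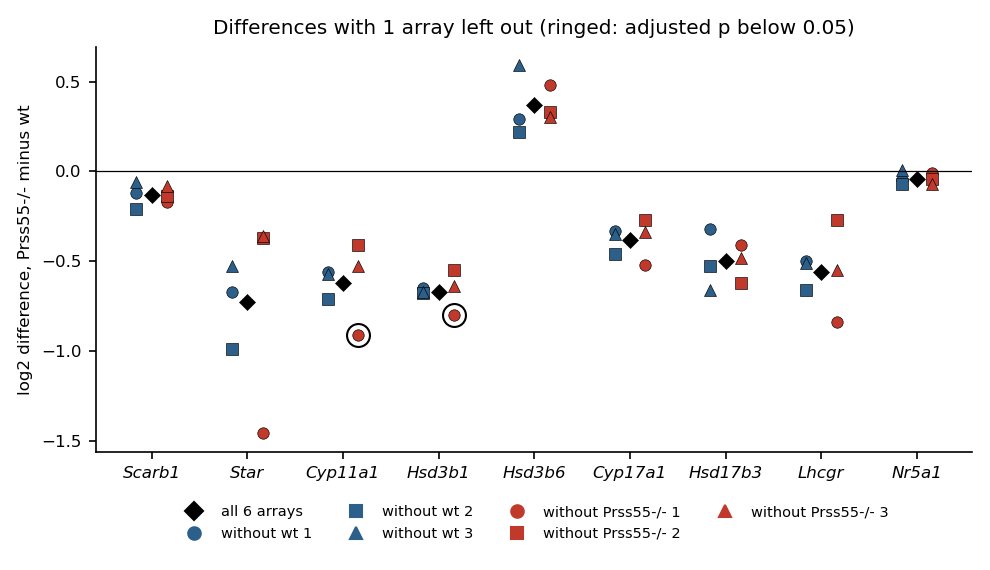
Log2 difference of *Prss55*-/- minus wt (y axis) for each gene with all 6 arrays (black diamonds) and with 1 wt (blue) or 1 *Prss55*-/- (red) array left out. Circles, squares and triangles mark replicates 1, 2 and 3, and rings mark an adjusted p below 0.05. *Star* ran from -1.46 to -0.36, and the rings fall on *Cyp11a1* and *Hsd3b1* without *Prss55*-/- replicate 1.

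The rest of the steroid pathway was taken from 5 lists of 107 genes, of which 91 were tested, 57 lower and 34 higher in *Prss55*-/- testis. Unadjusted p was below 0.05 for 27 of them, 19 lower, and 2 passed the adjusted threshold, *Soat1* and *Lhx9*, both lower. Their median difference was -0.040. All genes tested had 24.9% and 1.71% past these 2 rules. No gene of the 5 lists met the unadjusted p and 2-fold.

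Cholesterol supply and storage held 29 tested genes, from lipoprotein receptors and the enzymes of cholesterol synthesis to the carriers of the cytosol. Their median was -0.08, with 20 lower and 9 higher. Unadjusted p was below 0.05 in limma for 12 of the 29, 9 with a lower and 4 with a higher probe. Among all tested genes 24.9% reached that p, the share to set beside the same counts of the lists below. *Soat1*, the enzyme that esterifies cholesterol for storage in lipid droplets, read 11.37, 11.39 and 11.32 in *Prss55*-/- replicates 1 to 3 and 11.78, 11.79 and 11.67 in wt replicates 1 to 3. It fell by 0.38 (standard error 0.0537, limma adjusted p = 0.039), to 76.7% of wt, with no overlap, as the 1 gene of the list past the threshold.

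The other *Soat1* probes gave -0.14 and -0.36 and passed nothing after adjustment (limma adjusted p = 0.42 and 0.26). Over 14 alternatives the adjusted p of the first probe lay between 0.034 and 0.18, below 0.05 in 7, and it was above 0.05 without *Prss55*-/- replicate 2 (0.139), *Prss55*-/- replicate 3 (0.181), wt replicate 1 (0.153) or wt replicate 2 (0.108) in limma. Among electron donors, the proteins that pass electrons to the steroid cytochromes, all 5 tested genes read lower, with a median of -0.12. None passed the threshold (unadjusted p below 0.05 in limma for 1). *Fdxr*, the reductase that serves CYP11A1, had the largest difference, -0.16 (limma adjusted p = 0.38).

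Of 30 other steroid enzymes, 22 were tested and 0 passed the adjusted threshold, 14 lower and 8 higher (unadjusted p below 0.05 in limma for 6). The largest difference was that of *Akr1b7*, a reductase of aldehydes known from the adrenal gland and fetal Leydig cells. It read 5.75, 6.15 and 5.39 in *Prss55*-/- and 5.15, 5.37 and 4.85 in wt testis. All *Prss55*-/- arrays and no wt array had it well above background, so that it was tested through the *Prss55*-/- arrays alone and nothing is drawn from its direction. The measured difference was 0.64 (limma adjusted p = 0.20), and it ran from 0.28 with normexp background to 0.83 over 13 alternatives.

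Receptors and signalling had 19 of 23 genes tested and 0 past the adjusted threshold (unadjusted p below 0.05 in limma for 3), with a median of -0.02. *Pde4a*, a phosphodiesterase that breaks down cAMP, read 12.76, 12.78 and 12.80 in *Prss55*-/- and 12.41, 12.52 and 12.47 in wt testis, a difference of 0.31 (limma adjusted p = 0.054) with no overlap. Its 2 other probes gave -0.07 and -0.05. This list also holds *Jak3*, through the probe that lists *Insl3*.

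Transcription regulators had 16 of 20 genes tested, 7 lower and 9 higher, with a median of 0.02 (unadjusted p below 0.05 in limma for 5). *Lhx9*, a homeobox factor of the early gonad, read 8.99, 9.10 and 9.12 in *Prss55*-/- and 9.59, 9.46 and 9.46 in wt testis. It fell by 0.44 (standard error 0.0623, limma adjusted p = 0.040), to 74.0% of wt, with every *Prss55*-/- array below every wt array. Over 14 alternatives its adjusted p lay between 0.035 and 0.19, below 0.05 in 6, and of the arrays left out in turn it stayed below 0.05 in limma without *Prss55*-/- replicate 1 (0.0484) and lay between 0.0603 and 0.151 without any other.

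**Figure D5:**
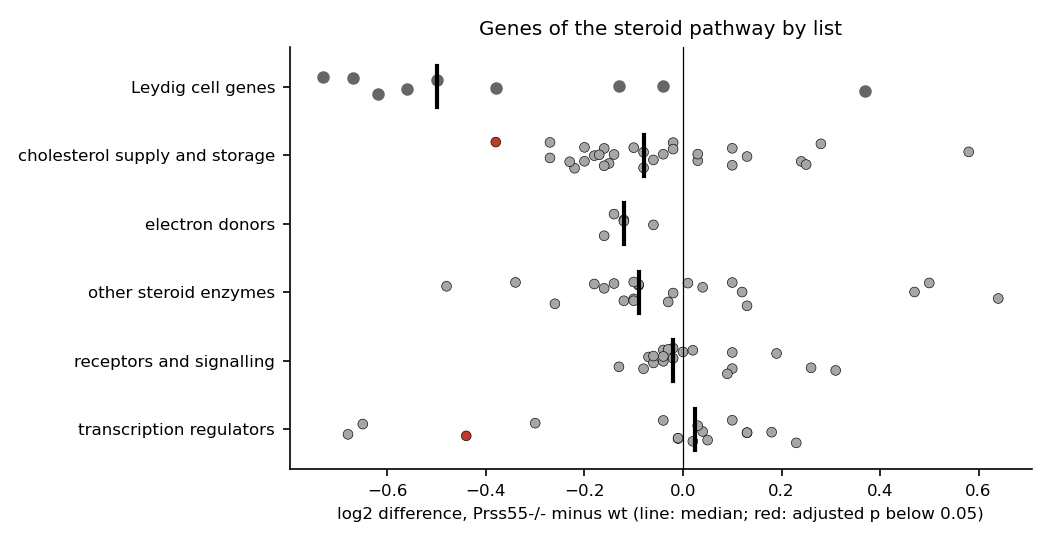
Log2 difference of *Prss55*-/- minus wt (x axis) for the brightest probe of each gene, by list, with the median of each list as a black line and genes past the adjusted threshold in red. The Leydig cell genes have their median at -0.50, while the medians of the other 5 lists lie between -0.12 and 0.02, and the red points are *Soat1* and *Lhx9*.

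Markers of the cell types in and around the testis were read beside these genes. The 18 other adult Leydig cell markers were all bright enough to test, and 0 passed the adjusted threshold. Unadjusted p was below 0.05 in limma for 1 of them, beside 24.9% of all tested genes. Of the 18 markers, 14 read lower, with a median of -0.14. The summed linear signal of the 18 ran from 298000 to 400000 in *Prss55*-/- and from 373000 to 434000 in wt testis. The same sum over the 9 steroid genes ran from 46700 to 66000 in *Prss55*-/- and from 64900 to 75200 in wt testis, and the genotypes overlapped in both. *Klk1b21*, a kallikrein, had the largest difference among the markers, with 11.76, 10.64 and 11.11 in *Prss55*-/- and 12.29, 11.91 and 11.33 in wt testis (-0.67, limma adjusted p = 0.35).

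For cells other than Leydig cells, 0 markers passed the adjusted threshold on the Sertoli (13 tested, median -0.07), peritubular and vascular (11 tested, median -0.10), macrophage (11 tested, median -0.12), germ cell (13 tested, median -0.01), fetal Leydig and adrenal (4 tested, median 0.09) and epididymis (2 of 7 tested) lists. At an unadjusted p below 0.05 in limma these lists had 4, 3, 2, 5, 2 and 1 genes, beside 24.9% of all tested genes. All 11 peritubular and vascular markers read lower in *Prss55*-/- testis, against 50.7% of all tested genes. Their summed signal did not overlap, at 38200 to 41700 against 43400 to 46500 in wt testis. That of the transcription regulators above did not overlap either, but was higher in *Prss55*-/- testis, at 55200 to 55300 against 49600 to 52200. No share of all genes stands beside a summed signal, so nothing is drawn from it. Germ cell markers summed to 1800000 to 1890000 in *Prss55*-/- and 1880000 to 1950000 in wt testis, and macrophage markers to 134000 to 149000 and 132000 to 149000. The part of other cells in the Leydig cell differences was not tested.

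Single genes named on these lists were *Fshr*, the receptor of Sertoli cells for follicle-stimulating hormone (-0.27, limma adjusted p = 0.073), *Actg2*, a smooth muscle actin (-0.27, limma adjusted p = 0.17), *Cd163*, a scavenger receptor of macrophages (-0.40, limma adjusted p = 0.19), and *Sycp1*, a protein of the synaptonemal complex (0.31, limma adjusted p = 0.13). Each was named for the largest difference of its list, and the genotypes did not overlap in these 4. The share of all genes without overlap was 27.4%, but those genes were not picked for their difference, so nothing is drawn from this. Of the 13 germ cell markers tested, 8 read lower and 5 higher in *Prss55*-/- testis, *Sycp1* among the latter. *Rnase10*, an epididymis gene, was well above background on every wt array but only 2 of the *Prss55*-/- ones. It was thus tested through the wt arrays alone, and nothing is drawn from its direction or its p values. It read 7.29, 4.64 and 5.44 in *Prss55*-/- replicates 1 to 3 and 8.60, 8.80 and 8.71 in wt replicates 1 to 3, and *Prss55*-/- replicate 1 was the array nearest to wt. The measured difference was -2.91 (limma adjusted p = 0.092). Over 13 alternatives it ran from -3.66 without *Prss55*-/- replicate 1 (limma adjusted p = 0.0041) to -1.79 with normexp background (limma adjusted p = 0.021), the 2 that passed.

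The genes most like the list in their course over the 6 arrays were sought among 14433 named genes, by Pearson correlation with the mean of the 9 genes, each centred on its own mean. Values were not scaled, so genes of wide spread, such as *Star*, weigh most in the mean of the 9. The highest r of so many genes over 6 arrays was taken, with no test. That mean was 0.13, -0.38 and -0.29 in *Prss55*-/- replicates 1 to 3 and 0.25, -0.01 and 0.29 in wt replicates 1 to 3. The 5 closest were *Serpina3c* (r = 0.996), *Serpina3m* (0.995), *Serinc2* (0.991), *Ppp1r12a* (0.991) and *Lrg1* (0.987), over 6 arrays that share slides and genotype. *Serpina3c* and *Serpina3m* are serine protease inhibitors of 1 gene family, and their probes may share signal.

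*Lrg1*, a secreted leucine-rich glycoprotein, had the widest course of the 5. It read 10.61, 8.78 and 9.12 in *Prss55*-/- replicates 1 to 3 and 10.80, 10.28 and 10.85 in wt replicates 1 to 3, a difference of -1.14 that did not pass (limma adjusted p = 0.27). *Prss55*-/- replicate 1 read with the wt arrays, as for *Star* and *Cyp11a1*. *Lrg1* was picked for its likeness to a mean that holds both genes, so nothing is drawn from this. *Ppp1r12a*, a myosin phosphatase subunit, ran over only 0.0306 from the lowest to the highest array, so its likeness is one of order and not of size.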

How the data were processed

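The authors deposited the scanner output of 6 single-dye Agilent arrays (Feature Extraction 10.7.3.1 per the file headers), whose processed signal is a linear intensity corrected for background within each array, and a matrix of quantile-normalized log2 values. Control spots and spots with an outlier flag were left out, signals below 1 were set to 1, and log2 signals were quantile-normalized and averaged per probe. The 28606 probes that the scanner software called well above background on every array of either genotype were tested. *Prss55*-/- was compared with wt by limma 3.58.1 in R 4.3.3, two-sided, with Benjamini-Hochberg adjustment over all tested probes. A gene passed if any of its probes did, and the brightest probe by mean signal stood for a gene. Fits were tested on simulated data.

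Genes named from the other lists were those past the adjusted threshold or past an unadjusted p below 0.05 and 2-fold, otherwise the one with the largest difference. Members and lists were chosen with earlier results of these data known. Probe names and positions are those of the files, whose headers name build mm9. Promoters came from RefSeq. Arrays of 3 mice a group limit the precision, and each labelled replicate was taken as 1 animal. Tables and plots were made in Python 3.11.15 with pandas 2.3.3, numpy 2.4.6, matplotlib 3.10.9 and scipy 1.17.1. Alternatives on scaling, background, filter, block, test and left-out arrays are given at the end. The authors' qRT-PCR and protein data were not used here.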

Additional observations from a re-analysis of the deposited data

How the results depend on the processing

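The direction of *Star*, *Cyp11a1*, *Cyp17a1*, *Hsd3b1*, *Hsd3b6*, *Hsd17b3*, *Lhcgr* and *Scarb1* was the same in all 14 alternatives run. Those on filter, replicate block and test could not turn it, since they change the p values and not the difference. The deposited matrix holds quantile-normalized values of the same arrays, and the slide block had a correlation within slides of 0.036. Both thus stayed close to the main fit and could hardly turn the direction. *Nr5a1*, between -0.073 and 0.01 with 1 array left out, turned to 0.01 without wt replicate 3 and to 0.16 on its other probe. The count of list genes past the adjusted threshold, 0 of 9, became 1 with normexp background, 1 (*Hsd3b1*) at the unadjusted threshold of the methods' t-test and 0 to 2 with 1 array left out. Past the unadjusted p and 2-fold the count was 0 to 1 with 1 array left out. The median difference, -0.505, ran from -0.528 to -0.275 with 1 array left out. Of the other pathway genes, 2 passed. The count was 0 without a filter on dim probes, 4 with probes well above background on all 6 arrays, 0 with the methods' t-test after adjustment and 20 at its unadjusted threshold, and 0 to 4 with 1 array left out, with *Prss55*-/- replicate 1 giving 4, wt replicate 3 giving 1 and each other array 0. Over all tested genes, 328 passed the adjusted threshold in the main fit. The count was 322 with normexp background, 132 without the filter and 369 with probes well above background on all 6 arrays. It was 86 with the t-test and 37 to 773 with 1 array left out, the most without *Prss55*-/- replicate 1. All genes past the unadjusted threshold of the t-test were not counted, so nothing is drawn from the 1 and the 20 there. At an unadjusted p below 0.05 in limma, 27 of the 91 other pathway genes passed, beside 24.9% of all tested genes. Same-numbered animals did not deviate together (r = -0.054, -0.023 and -0.112). With a replicate block, 0 list genes and 0 other pathway genes passed the adjusted threshold, and 13 probes of all did, against 346 without it. Array number and the spread between animals limit every value, and causes of these shifts were not tested.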
